A study of Homo sapiens with 4 samples.

Results

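Collagens are the structural proteins of the extracellular matrix, built from chains wound around each other in a helix, and every chain has a gene of its own. The collagen chain genes were taken as all rows of the deposited table whose symbol is COL, a number, A and a number, which gave 43 of 25283 genes: 11 fibrillar, 9 network, 9 FACIT and 14 other chains. The sequenced RNA came from the human embryonic stem cell line H1 after it had been taken to neural progenitors and then through a neuronal maturation kit, and the labels name the cells as neurons. There were 2 libraries of cells with a lentiviral vector for overexpression of U1 snRNA (U1_OE) and 2 with an empty vector on the wild-type line (control), each 36 hours after the vector was given. U1 snRNA pairs with 5′ splice sites at the start of introns. The treatment text of the control samples also names the overexpression vector, so groups were taken from titles and genotype labels, and the labels do not state whether each library had its own culture. P-values therefore measure the spread between these libraries, which may be technical. The promoter of the vector, the number of clones and the level of U1 snRNA were not analysed here.

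Fibrillar chains (types I, II, III, V, XI, XXIV and XXVII) pack side by side into the fibrils of skin, tendon, bone and cartilage. Network chains form sheets: type IV is the scaffold of basement membranes, and types VIII and X build hexagonal lattices under endothelium and in growing cartilage. FACIT chains have interrupted helices and sit on the surface of fibrils, and the other chains include the beaded filaments of type VI, the anchoring fibrils of type VII, transmembrane collagens and the multiplexins of types XV and XVIII. Collagens are made in bulk by fibroblasts and other mesenchymal cells, while in nervous tissue they come mainly from meninges, vessels and Schwann cells.

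The labelled cell type went against the markers. Of 11 measured neuron markers, 4 reached 1 CPM (the count relative to a TMM-adjusted library total) in every library, and RBFOX3, a nuclear protein of mature neurons, had 0.123 and 0.0524 CPM in the U1_OE libraries and 0.294 and 0.166 CPM in the control libraries. Of 12 mesenchymal and fibroblast markers, 11 reached 1 CPM in every library, with summed levels of 12023 and 12699 CPM in U1_OE and 9607 and 10121 CPM in control. The largest part of that sum was VIM, at 5164 and 6690 CPM in U1_OE and 4639 and 4352 CPM in control. THY1, VIM, PDGFRA, PDGFRB and TWIST1 were higher in both U1_OE libraries, and the groups of the other markers overlapped. The summed neuron markers were also higher in U1_OE, at 284 and 359 CPM against 183 and 120 CPM in control, and most of that sum was TUBB3. Summed endothelial markers had 42.5 and 77.0 CPM in U1_OE and 28.3 and 35.1 CPM in control, and most of that sum was PECAM1. CDH5 and KDR were under 1 CPM in every library and lower in both U1_OE libraries, while TEK was higher there. TIE1, at most 0.185 CPM in any library, was higher in U1_OE, and VWF, at most 0.332 CPM, overlapped. Summed epithelial markers had 477 and 818 CPM in U1_OE and 415 and 249 CPM in control. Nearly all of that sum was KRT8 and KRT18, and EPCAM and CDH1 were under 1 CPM in every library. Of 4 measured neural progenitor markers, 2 reached 1 CPM in every library. NES had 39.4 and 44.5 CPM in U1_OE and 24.3 and 30.0 CPM in control. PAX6 had 5.60 and 12.3 CPM in U1_OE and 19.7 and 13.5 CPM in control, and SOX2 and FABP7 were also lower in U1_OE. Of 4 measured astrocyte markers, 1 reached that level. It was SLC1A3, with 25.6 and 20.3 CPM in U1_OE and 6.83 and 18.7 CPM in control. The part of these markers in the collagen values was not tested, and in bulk RNA fewer cells of a type and less RNA per cell cannot be told apart. Library totals were 16713505 to 19057423 estimated counts.

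The repeat that makes a chain a collagen can be read in the exons, and it is what the rule by symbol did not use. Glycine recurs throughout the helix as 1 residue in 3, and fibrillar genes carry the helix in many short exons. Of 649 coding exons in the 11 fibrillar genes, 47.0% were exactly 54 bases long and 82.9% were a multiple of 9 bases. The share of 54-base exons was 24.6% in FACIT, 3.96% in network and 6.60% in other chains. Below, exon 8 of COL1A1 stands with the exon of the same length in COL1A2, COL3A1, COL11A1 and COL5A2 that matched it best. These exons were picked for that match, so their shared bases are not a typical figure for the chains. The sequences are those of the GENCODE transcripts on GRCh38, 5′ to 3′ on the coding strand, and codons for glycine (GGN) are in capitals.
COL1A1 exon 8 (chr17:50197949-50198002, minus strand): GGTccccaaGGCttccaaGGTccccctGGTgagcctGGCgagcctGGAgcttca
COL1A2 exon 8 (chr7:94404693-94404746, plus strand): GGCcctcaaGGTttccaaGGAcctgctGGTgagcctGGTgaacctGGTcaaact
COL3A1 exon 7 (chr2:188988590-188988643, plus strand): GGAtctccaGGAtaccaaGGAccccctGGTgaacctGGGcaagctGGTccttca
COL11A1 exon 16 (chr1:103006262-103006315, minus strand): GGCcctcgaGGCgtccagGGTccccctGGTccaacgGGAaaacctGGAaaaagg
COL5A2 exon 10 (chr2:189085719-189085772, minus strand): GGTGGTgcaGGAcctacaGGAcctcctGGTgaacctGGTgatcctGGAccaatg
The COL1A2 and COL3A1 exons each shared 40 of 54 bases with that of COL1A1, the COL11A1 exon 35 and the COL5A2 exon 33. Of the 54-base exons in frame, 21 of 21 in COL1A1, 23 of 24 in COL1A2 and 24 of 24 in COL3A1 began with a glycine codon and had 1 at every 3 codons from there. The sources used here do not say how reads that match several chains were divided, so values of close paralogs are uncertain to that extent.

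By level, the collagens were led by the chains of the interstitial matrix. Together the 43 genes took 8.26% and 7.37% of all counts in the U1_OE libraries and 6.12% and 8.21% in the control libraries. The control libraries thus lay on both sides of U1_OE replicate 2, and the groups overlapped. The mean share was 7.82% ± 0.63 in U1_OE and 7.16% ± 1.48 in control (SD, n = 2 each; exact permutation test, two-sided, p = 0.667, where 0.333 is the smallest value that 2 libraries against 2 allow). The difference was 0.65 percentage points with all libraries and -0.39 without control replicate 1. Leaving COL1A1 out of both the collagens and the total, the shares were 4.41% and 3.54% in U1_OE and 3.29% and 4.46% in control, a mean difference of 0.10 percentage points, so COL1A1 carried most of the difference.

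**Figure D1:**
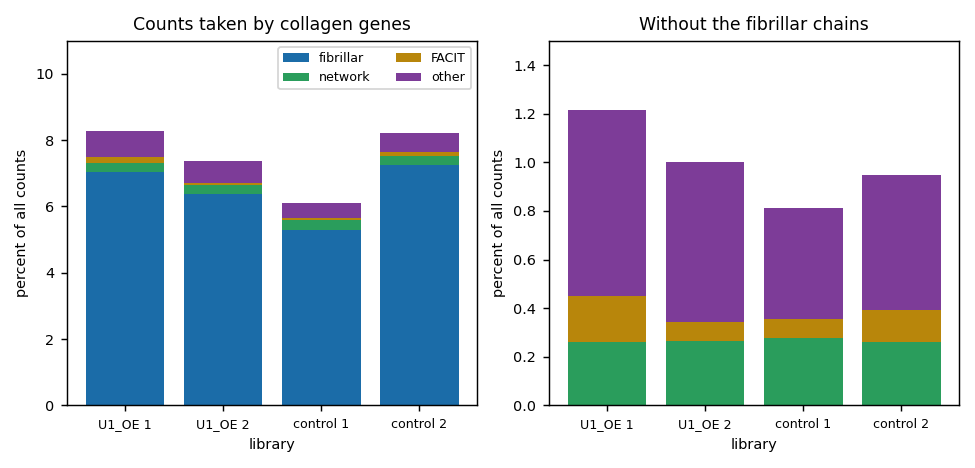
Share of each library's counts taken by the collagen classes (left, all classes, right, without the fibrillar chains), in percent of all counts, 1 stacked bar per library. Fibrillar chains made up most of each bar, and the other chains, mainly type VI, took 0.763% and 0.658% in U1_OE against 0.458% and 0.555% in control.

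Fibrillar chains took 7.05% and 6.37% of counts in U1_OE and 5.30% and 7.26% in control, and network chains 0.262% and 0.266% against 0.275% and 0.260%. The network share was nearly the same in all 4 libraries. FACIT chains took 0.189% and 0.0750% in U1_OE and 0.0799% and 0.132% in control, with U1_OE replicate 1 alone standing high. For the other chains, both U1_OE libraries lay above both control libraries (exact permutation test, two-sided, p = 0.333, the smallest possible).

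Levels of different genes were compared per kilobase of the transcript with the longest coding sequence in GENCODE. Averaged over the 4 libraries, COL1A1 was highest at 5530 CPM per kb, before COL1A2 at 3168, COL3A1 at 1439, COL6A1 at 660, COL6A2 at 656 and COL8A1 at 416 CPM per kb. COL6A1 and COL6A2 were neighbours in that order whose levels per kb differed by less than the spread between libraries. COL5A2 at 163, COL5A1 at 111, COL4A2 at 106 and COL11A1 at 95.5 CPM per kb came next. In all, 14 of the 43 genes reached 100 CPM in every library and 33 had a mean of at least 1 CPM. The other 10 had between 0 and 1.91 CPM in any library: COL20A1 and COL22A1 among FACIT chains, the kidney and basement membrane chains COL4A3 and COL4A4, and COL6A5, COL6A6, COL23A1, COL25A1, COL26A1 and COL28A1. COL20A1 had 4.41 counts in U1_OE replicate 1 and 0 in the other libraries, which allows up to 0.157 CPM in U1_OE replicate 2, 0.177 CPM in control replicate 1 and 0.166 CPM in control replicate 2, counting error only.

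**Figure D2:**
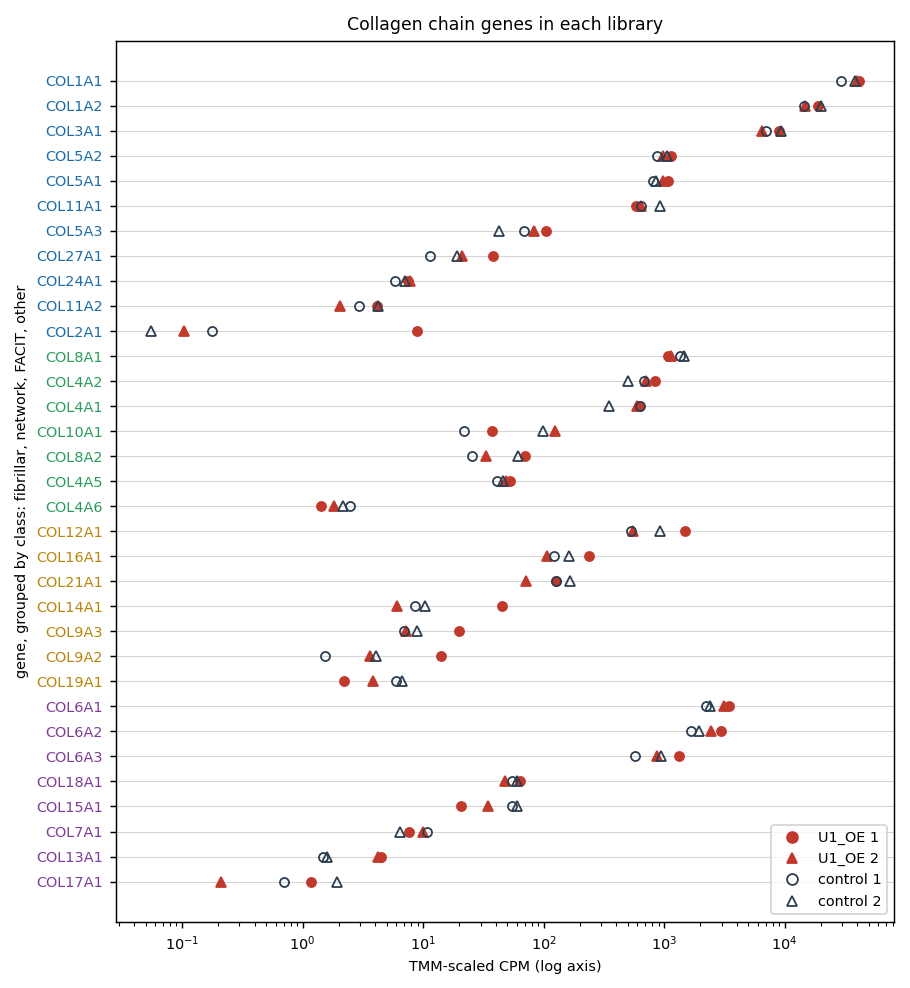
TMM-scaled CPM (log axis) of the 33 collagen chain genes with a mean of at least 1 CPM, grouped by class and ordered by mean, with 1 symbol per library (filled, U1_OE; open, control). Levels span from COL1A1, at 29374 to 41457 CPM, to chains near 1 CPM, and COL2A1 has a single library far from the others.

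Whether any chain gene differed between U1_OE and control was asked with edgeR's quasi-likelihood test over all 17317 genes that passed a filter on low counts. Of the 43 collagen genes 33 passed that filter. By this test with Benjamini-Hochberg adjustment, 0 of the 33 had an adjusted p under 0.05, against a background of 0.0% of all tested genes, and the smallest adjusted p of a member was 0.459. The count at an unadjusted p under 0.05 was 7 of 33, 4 higher in U1_OE (background 4.36% of all tested genes) and 3 lower (background 4.72%). limma-voom also called 0, with 7 of the members under an unadjusted p of 0.05, beside 8.94% of all tested genes. DESeq2 with all libraries called 1 of 34 members with an adjusted p, COL6A1. The background was 0.614% of genes called higher and 1.08% called in either direction. DESeq2 fits without a U1_OE library, which leave 1 in that group, called other members instead. They were COL21A1 without U1_OE replicate 1, and COL6A2, COL15A1, COL14A1 and COL2A1 without U1_OE replicate 2. In 22 of the 33 tested members the log2 fold change was positive and in 11 negative, with a median of 0.26, where all tested genes had 8542 positive, 8775 negative and a median of -0.01. The median of the members was -0.12 without U1_OE replicate 1, 0.12 without control replicate 1 and 0.34 without control replicate 2, so its sign rests on U1_OE replicate 1. By class, the median of FACIT chains was -0.40 without U1_OE replicate 1 and that of network chains -0.21 without control replicate 1, where the fibrillar and other chains kept a positive median without each library in turn.

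In 10 members both U1_OE libraries lay above both control libraries, beside 19.7% of all tested genes, and in 4 both lay below, beside 22.0%. The 10 were COL1A1, COL5A1, COL5A3, COL24A1 and COL27A1 among fibrillar chains, COL4A2 and COL4A5 among network chains, and COL6A1, COL6A2 and COL13A1. The 4 were COL8A1, COL4A6, COL15A1 and COL19A1.

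**Figure D3:**
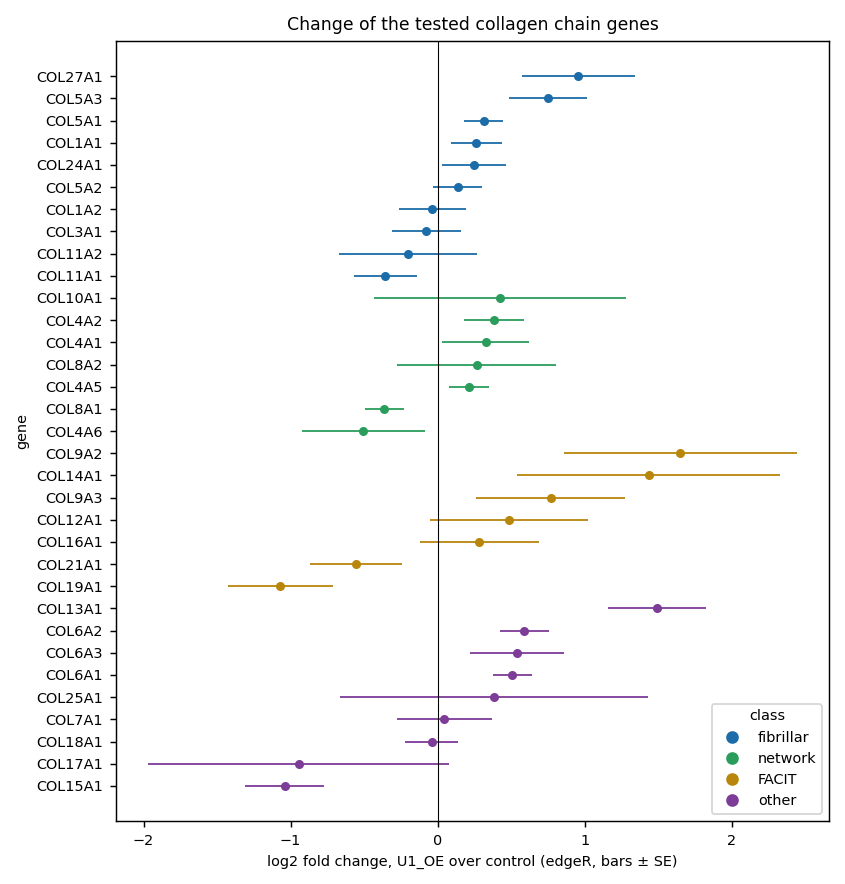
log2 fold change of U1_OE over control for the 33 tested collagen genes (edgeR, points, with bars of ± SE), coloured and ordered by class. None passed an adjusted p of 0.05, and the bars of the FACIT chains COL9A2 and COL14A1 are among the widest.

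Among fibrillar chains, the pair that forms type I collagen differed in whether the groups overlapped. COL1A1 (chromosome 17, 50183289 to 50201632, minus strand), the main chain of skin and bone, had 41457 and 39670 CPM in U1_OE and 29374 and 38311 CPM in control. COL1A2 (chromosome 7, 94394561 to 94431232, plus strand), its partner in the trimer, had 19118 and 14743 CPM in U1_OE and 14512 and 20204 CPM in control. For COL1A1 the U1_OE libraries were the 2 highest, while for COL1A2 they lay between the control libraries. The edgeR log2 fold changes were 0.26 ± 0.17 (SE; adjusted p = 0.698) for COL1A1 and -0.04 ± 0.23 (adjusted p = 0.980) for COL1A2. With control replicate 1 left out COL1A1 was at 0.10, and with control replicate 2 left out at 0.46, and COL1A2 was 0.14 without U1_OE replicate 2 and 0.22 without control replicate 2. COL3A1, the homotrimer-forming chain of vessels and elastic tissues, had 9025 and 6511 CPM in U1_OE and 6968 and 9411 CPM in control, with overlapping groups and a log2 fold change of -0.08 ± 0.24, which was 0.14 without U1_OE replicate 2 and 0.16 without control replicate 2.

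Type V collagen starts fibrils and limits their width. COL5A1 had 1087 and 984 CPM in U1_OE and 816 and 851 CPM in control, so the groups did not overlap, with a log2 fold change of 0.31 ± 0.13 (edgeR adjusted p = 0.571). COL5A2, the chain it assembles with, had 1133 and 982 CPM in U1_OE and 871 and 1056 CPM in control, and these ranges overlapped. Its log2 fold change of 0.13 ± 0.16 ranged from 0.02 without control replicate 1 to 0.28 without control replicate 2, and was 0.04 and 0.23 without U1_OE replicate 1 and 2. COL5A3, the least abundant chain of the type, had 104 and 83.5 CPM in U1_OE and 68.5 and 43.0 CPM in control. Its groups were apart, and its log2 fold change of 0.75 ± 0.27 had an unadjusted p of 0.0377 by edgeR (adjusted p = 0.527). That fold change ranged from 0.45, with control replicate 2 left out, to 1.15, with control replicate 1 left out. COL5A3 shares 270 exonic bases, or 4.37% of its exons, with a gene on the opposite strand.

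The remaining fibrillar chains are best known from cartilage. COL11A1, which nucleates cartilage fibrils, had 581 and 647 CPM in U1_OE and 646 and 926 CPM in control. Only control replicate 2 stood apart. COL11A2 had 4.19 and 2.04 CPM in U1_OE and 2.94 and 4.20 CPM in control. COL24A1, a minor fibrillar chain found in developing bone, had 7.58 and 7.81 CPM in U1_OE and 5.89 and 7.08 CPM in control, and COL27A1, a cartilage chain, had 38.2 and 21.1 CPM in U1_OE and 11.5 and 19.0 CPM in control. COL27A1 did not overlap between groups, and its log2 fold change of 0.96 ± 0.39 (edgeR adjusted p = 0.560) was 0.48 without U1_OE replicate 1 and 1.32 without U1_OE replicate 2. For the 10 tested fibrillar chains the median log2 fold change was 0.19, with 6 positive and 4 negative.

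Network chains included genes with groups apart in both directions. COL8A1, a short chain of vessel walls and the cornea, was the most abundant of them per kb and had 1071 and 1134 CPM in U1_OE and 1359 and 1476 CPM in control. The groups did not overlap and the libraries of each were close together, with means of 1103 ± 44.7 CPM in U1_OE and 1418 ± 82.4 CPM in control (SD, n = 2 each). Its log2 fold change was -0.36 ± 0.13, with an unadjusted p of 0.0399 by edgeR and an adjusted p of 0.534. COL8A2, with which COL8A1 can form lattices, had 70.6 and 33.3 CPM in U1_OE and 25.3 and 61.0 CPM in control, so each group held a high and a low library. COL10A1, the chain of hypertrophic cartilage, had 37.6 and 124 CPM in U1_OE and 22.1 and 98.6 CPM in control. In both groups replicate 2 was the higher library for COL10A1, and the groups overlapped.

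COL4A1 and COL4A2, the main chains of all basement membranes, lie head to head on chromosome 13 (COL4A1, 110148963 to 110307233, minus strand; COL4A2, 110305812 to 110513209, plus strand; GENCODE), with RefSeq start sites 127 bases apart. The bases between these start sites, which serve both genes as a promoter, are given here from the RefSeq promoter table (GRCh38.p14), on the strand of COL4A2, with a CCAAT box (CCAAT) and a GC box (GGGCGG) in capitals.
COL4A1-COL4A2 interval (chr13:110307158-110307283, plus strand): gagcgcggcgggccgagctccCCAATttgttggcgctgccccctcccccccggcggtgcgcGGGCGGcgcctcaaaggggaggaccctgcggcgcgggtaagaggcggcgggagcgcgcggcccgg
The 126 bases were 80.2% G or C. Searched on both strands, CCAAT occurred once here and in 21.1% of all 35116 promoter windows of the same length, GGGCGG once here and in 34.6%, and the TATA box TATAAA not here and in 5.87%, with no overlap between the motifs found. COL4A2 had 840 and 714 CPM in U1_OE and 687 and 504 CPM in control, and COL4A1 had 622 and 601 CPM in U1_OE and 627 and 348 CPM in control. Control replicate 2 was the lowest library for both genes. The log2 fold changes were 0.38 ± 0.20 for COL4A2 (edgeR adjusted p = 0.644) and 0.33 ± 0.30 for COL4A1 (adjusted p = 0.775). Without control replicate 2 they were 0.18 and -0.04, and without control replicate 1 they were 0.65 and 0.84, so neither size was steady.

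The other head-to-head pair with measurable levels is COL4A5 and COL4A6 on chromosome X, with start sites 380 bases apart, which make basement membranes of skin and smooth muscle. COL4A5 had 52.5 and 48.9 CPM in U1_OE and 41.1 and 46.3 CPM in control, and COL4A6 had 1.42 and 1.83 CPM in U1_OE and 2.47 and 2.16 CPM in control. The groups of both genes were apart, in opposite directions, with log2 fold changes of 0.21 ± 0.14 and -0.51 ± 0.42 (edgeR adjusted p = 0.695 and 0.760). COL4A6 was at -0.32 without U1_OE replicate 1. COL4A3 and COL4A4, another such pair, stayed under 1 CPM in every library and were not tested. The median log2 fold change of the 7 tested network chains was 0.26.

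Type VI collagen, which forms beaded filaments around cells and binds them to the matrix, had the smallest p-values among chains of over 1000 CPM in every library. COL6A1 (chromosome 21, 45981737 to 46005050, plus strand) had 3430 and 3140 CPM in U1_OE and 2226 and 2392 CPM in control. COL6A2, which follows 93046 bases further on the same strand, had 2991 and 2462 CPM in U1_OE and 1676 and 1948 CPM in control. For both genes the lower U1_OE library lay well above the higher control library. COL6A3, the long chain of the trimer from chromosome 2, had 1328 and 877 CPM in U1_OE and 576 and 939 CPM in control, so that U1_OE replicate 2 lay between the control libraries. The means were 3285 ± 205 CPM in U1_OE and 2309 ± 117 CPM in control for COL6A1, and 2727 ± 374 CPM in U1_OE and 1812 ± 192 CPM in control for COL6A2 (SD, n = 2 each).

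By edgeR the log2 fold change of COL6A1 was 0.51 ± 0.13, with an unadjusted p of 0.0128 and an adjusted p of 0.459, and that of COL6A2 0.59 ± 0.17 (unadjusted p = 0.0173, adjusted p = 0.481). COL6A3 was 0.54 ± 0.32 (edgeR adjusted p = 0.679), 0.23 without U1_OE replicate 1, 0.25 without control replicate 1 and 0.93 without control replicate 2. DESeq2 called COL6A1 at 0.52 ± 0.15 (adjusted p = 0.0381). That call was not kept in the 5 other DESeq2 fits run: the DESeq2 adjusted p was 0.404 without U1_OE replicate 1, 0.0808 without U1_OE replicate 2, and 1.00 without either control library and with the replicate block. The log2 fold change itself stayed between 0.47 and 0.57 by DESeq2 without each library in turn. As a share of all collagen counts, type VI took 9.11% and 8.80% in U1_OE and 7.29% and 6.59% in control (exact permutation test, two-sided, p = 0.333, the smallest possible). Of the 12 mesenchymal markers, 5 also had both U1_OE libraries above both control libraries, beside 19.7% of all tested genes, and 7 overlapped. Of these 5, named after their values were seen, PDGFRA had 87.3 and 73.5 CPM in U1_OE and 50.6 and 56.5 CPM in control. THY1 had 693 and 585 CPM in U1_OE and 315 and 450 CPM in control. The part of these markers in the type VI values was not tested.

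The opposite ends of the other chains were a transmembrane collagen and a multiplexin. COL13A1, a transmembrane collagen of focal adhesions and neuromuscular junctions, had 4.50 and 4.19 CPM in U1_OE and 1.47 and 1.60 CPM in control. The levels were low, and both libraries of a group lay close together. Its log2 fold change of 1.49 ± 0.33 had the smallest unadjusted p of all members by edgeR, 0.00684, with an adjusted p of 0.459, and ranged from 1.46 to 1.56 without each library in turn. COL15A1, a basement membrane collagen that carries a precursor of restin, had 20.8 and 34.8 CPM in U1_OE and 54.5 and 60.1 CPM in control. Its groups were apart, with a log2 fold change of -1.04 ± 0.27 (edgeR unadjusted p = 0.0122, adjusted p = 0.459) that was -0.71 without U1_OE replicate 1 and -1.46 without U1_OE replicate 2. COL15A1 shares 137 exonic bases, or 2.49% of its exons, with a gene on the opposite strand. That gene had 11.3 and 10.9 counts in U1_OE and 40.6 and 44.1 counts in control. COL15A1 itself had 338 and 663 counts in U1_OE and 925 and 1087 counts in control. Without a stated strand-marking step reads of the shared bases cannot be told apart.

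COL18A1, the other multiplexin and the source of endostatin, had 63.6 and 48.0 CPM in U1_OE and 55.0 and 59.8 CPM in control, with the control libraries between those of U1_OE. COL7A1, the anchoring fibril chain of skin, had 7.70 and 10.0 CPM in U1_OE and 10.7 and 6.47 CPM in control. COL17A1, of hemidesmosomes, had 1.17 and 0.210 CPM in U1_OE and 0.706 and 1.94 CPM in control, and COL25A1, a transmembrane collagen found in amyloid plaques, had 1.91 and 0.315 CPM in U1_OE and 0.471 and 1.22 CPM in control. None of these 4 separated the groups. The 9 tested chains of this class had a median log2 fold change of 0.38.

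COL12A1, a large chain on the surface of type I fibrils, had 1496 and 549 CPM in U1_OE and 530 and 931 CPM in control. COL14A1, which also decorates type I fibrils, had 45.2 and 6.13 CPM in U1_OE and 8.54 and 10.4 CPM in control. In both genes U1_OE replicate 1 was the highest library and U1_OE replicate 2 lay among or below the controls. COL9A2, a chain of the type IX collagen that coats cartilage fibrils, had 14.0 and 3.62 CPM in U1_OE and 1.53 and 4.04 CPM in control, and COL9A3, its partner, had 19.8 and 7.23 CPM in U1_OE and 6.95 and 8.90 CPM in control. COL16A1, of skin and cartilage, had 239 and 107 CPM in U1_OE and 122 and 163 CPM in control. These 5 all had overlapping groups, and their positive log2 fold changes, from 0.28 to 1.65, carried standard errors of 0.41 to 0.90. Without U1_OE replicate 1 the sign turned in 4 of the 5, at -0.40 for COL12A1, -0.61 for COL14A1, -0.39 for COL16A1 and -0.12 for COL9A3. COL9A2 was at 0.39 there, against 1.65 with all libraries.

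COL21A1 and COL19A1 lay the other way. COL21A1, of vessel walls, had 127 and 72.1 CPM in U1_OE and 127 and 166 CPM in control, with U1_OE replicate 1 level with control replicate 1. COL19A1, of vascular and neural basement membrane zones, had 2.22 and 3.83 CPM in U1_OE and 6.0 and 6.75 CPM in control. The groups of COL19A1 were apart, with a log2 fold change of -1.07 ± 0.36 (edgeR unadjusted p = 0.0305, adjusted p = 0.510) that was -0.72 without U1_OE replicate 1 and -1.52 without U1_OE replicate 2. COL19A1 shares 70 exonic bases, or 1.04% of its exons, with LMBRD1 on the opposite strand. LMBRD1 had 330 and 525 counts in U1_OE and 549 and 583 counts in control. COL19A1 itself had 36.5 and 73.0 counts in U1_OE and 102 and 122 counts in control. Reads of the shared bases cannot be told apart without a stated strand-marking step. The median of the 7 tested FACIT chains was 0.48.

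COL2A1, the fibrillar chain that defines cartilage, stood out in 1 library. It had 145 counts, or 8.93 CPM, in U1_OE replicate 1 and 1.82 counts, or 0.105 CPM, in U1_OE replicate 2, and 3.47 and 1.11 counts, or 0.177 and 0.0553 CPM, in the control libraries. It did not pass the filter on low counts and was not tested by edgeR. DESeq2 with all libraries did not call COL2A1 (adjusted p = 0.0930). It put U1_OE over control at 5.29 on the log2 scale, with a standard error of 1.66. That size rests on U1_OE replicate 1, as U1_OE replicate 2 lay between the control libraries. Of 33 tested members, 6 were over 2-fold the mean of the other 3 libraries in U1_OE replicate 1, beside 5.65% of all tested genes. The count was 1 in U1_OE replicate 2 (beside 3.65%), 0 in control replicate 1 (4.58%) and 1 in control replicate 2 (4.42%). The 6 were COL9A2, COL9A3, COL12A1, COL14A1, COL27A1 and COL25A1, counted after their values were seen.

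Of 7 measured cartilage markers besides collagens, MATN1 and MATN3, which encode matrilins, were also highest in U1_OE replicate 1, at 1.72 and 32.3 CPM, with 0.105 and 13.2 CPM in U1_OE replicate 2 and 0.353 and 0.332 CPM for MATN1 and 16.7 and 16.6 CPM for MATN3 in control. The summed level of the 7 was 225 and 275 CPM in U1_OE and 300 and 279 CPM in control, lowest in U1_OE replicate 1, and was set mostly by HAPLN1, a hyaluronan link protein. SOX9, the regulator of cartilage genes, had 17.4 and 21.3 CPM in U1_OE and 7.12 and 8.35 CPM in control. Its level thus did not single out U1_OE replicate 1. Of the 12 mesenchymal markers, 8 were highest in U1_OE replicate 1 and 3 lowest there, and the same shares over all tested genes were not counted. The proteoglycan DCN, 1 of the 8, had 1137 and 233 CPM in U1_OE and 308 and 704 CPM in control, and the fibroblast protein S100A4, 1 of the 3, had 795 and 2431 CPM in U1_OE and 1544 and 1095 CPM in control. The part of these genes in the collagen values was not tested.

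**Figure D4:**
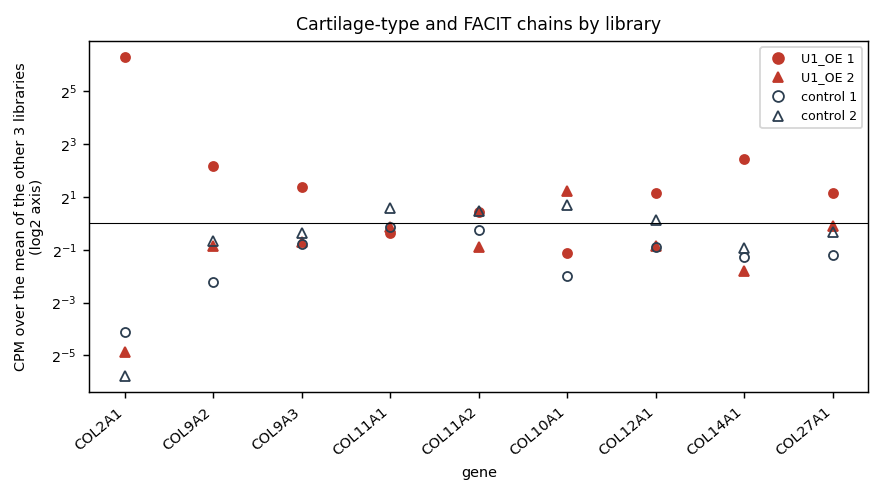
CPM of each library over the mean of the other 3 libraries (log2 axis) for the cartilage chains of types II, IX, X and XI and for COL12A1, COL14A1 and COL27A1, chosen after their values were seen. The filled circle of U1_OE replicate 1 is highest for COL2A1, COL9A2, COL9A3, COL12A1, COL14A1 and COL27A1, and not for COL11A1, COL11A2 or COL10A1.

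Ratios of chains within a library do not depend on a factor common to the whole library, and 11 pairs were compared. The values are estimated counts, and a factor that differed by gene and library would not cancel. In protein, which was not measured here, the common type I trimer holds a pair of COL1A1 chains for each COL1A2 chain. In RNA, COL1A1 stood to COL1A2 as 1.74 and 2.16 per kb in U1_OE and 1.63 and 1.53 per kb in control. Both U1_OE libraries had the higher ratio, by 0.30 on the log2 scale in the mean (exact permutation test, two-sided, p = 0.333; 0.733 after Benjamini-Hochberg adjustment over the 11 pairs). The difference was 0.46 without U1_OE replicate 1 and 0.15 without U1_OE replicate 2. COL3A1 to COL1A1 was 0.264 and 0.199 per kb in U1_OE and 0.288 and 0.298 per kb in control, with a mean log2 difference of -0.35, which was -0.56 without U1_OE replicate 1 and -0.15 without U1_OE replicate 2. COL4A5 to COL4A6 was 38.8 and 27.4 per kb in U1_OE and 17.1 and 22.2 per kb in control, a log2 difference of 0.74.

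COL6A1 to COL6A2 was 0.936 and 1.04 per kb in U1_OE and 1.08 and 1.00 per kb in control, the narrowest range of the 11 pairs on the log2 scale, and COL4A1 to COL4A2 was 0.727 and 0.825 per kb in U1_OE and 0.895 and 0.677 per kb in control. For both pairs the groups overlapped. COL6A3 to COL6A1, the other type VI pair, was less steady, at 0.153 and 0.110 per kb in U1_OE and 0.102 and 0.155 per kb in control. Of the 11 pairs, 5 had groups apart, with COL5A1 to COL5A2 and COL9A2 to COL9A3 as the others. Of all tested genes taken singly, 19.7% had groups apart with U1_OE higher and 22.0% with U1_OE lower. Ratios of other gene pairs were not counted. COL1A1 to COL1A2 and COL3A1 to COL1A1 have COL1A1 in common. None of the 11 pairs could reach an exact p under 0.333.

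**Figure D5:**
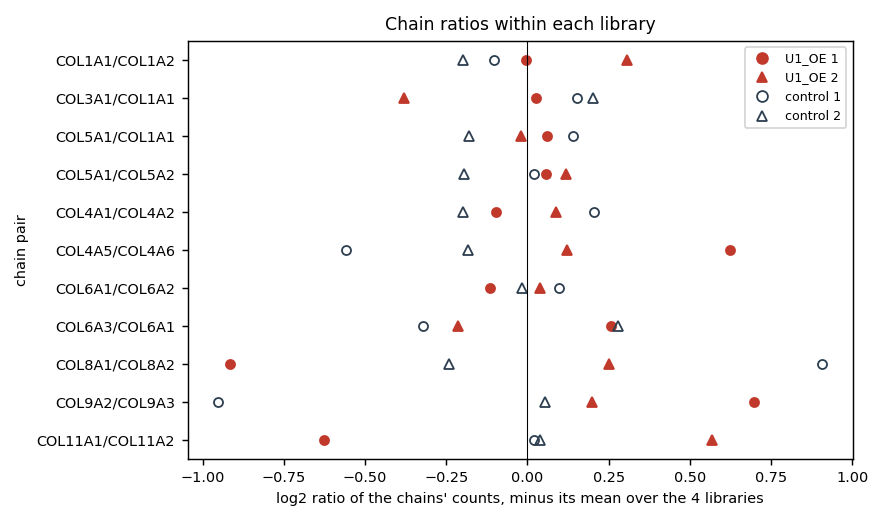
log2 ratio of the counts of 2 chains in each library, minus its mean over the 4 libraries, for 11 chain pairs (filled, U1_OE; open, control). Ratios of COL1A1 to COL1A2 are higher and those of COL3A1 to COL1A1 lower in both U1_OE libraries, while COL6A1 to COL6A2 stays within a narrow range.

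Gene structure varied widely within the family. The genes held from 1 intron, in COL10A1, to 117, in COL7A1, each beginning with a 5′ splice site, with medians of 59 in fibrillar, 47 in network, 47 in FACIT and 39 in other chains. Spans ran from 17.3 kb for COL9A2 to 494 kb for COL25A1. Across the 33 tested members the log2 fold change had a Spearman rho of -0.26 with span and of -0.15 with the number of introns, as a description across genes that share libraries and are not independent. Over the 14945 tested genes with a GENCODE span it was 0.01 with span.

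The other genes of collagen maturation and binding were taken from a list of 46 measured genes, all of which were tested. By edgeR over all genes 0 of the 46 were called higher and 0 lower, 10 had an unadjusted p under 0.05 with a higher level in U1_OE (background 4.36% of all tested genes) and 0 with a lower one (background 4.72%). The median log2 fold change was 0.22, and 0.09 without U1_OE replicate 1. The 6 with the smallest p were LOX, the cross-linking oxidase, with 794 and 846 CPM in U1_OE and 355 and 406 CPM in control, ITGA10 and ITGA1, collagen-binding integrin chains, ADAMTS14, a procollagen N-proteinase, FKBP14, a folding enzyme of the endoplasmic reticulum, and LOXL3, a relative of LOX. ITGA1 had 130 and 80.5 CPM in U1_OE and 53.1 and 43.2 CPM in control, and ITGA10, a receptor for type II collagen, had 17.1 and 13.6 CPM in U1_OE and 7.24 and 7.41 CPM in control. Both integrin chains had groups apart, which adds little for genes picked by small p-values. Over the 46 genes, 21 had both U1_OE libraries above both control libraries, beside 19.7% of all tested genes. In 3 both lay below, beside 22.0%. ADAMTS14 had 42.1 and 43.3 CPM in U1_OE and 28.4 and 19.1 CPM in control. FKBP14 had 147 and 128 CPM in U1_OE and 91.5 and 104 CPM in control. LOXL3 had 172 and 180 CPM in U1_OE and 140 and 117 CPM in control, and these 3 genes had groups apart as well. DESeq2 called LOX, ITGA1 and P4HA3, a prolyl hydroxylase subunit, all higher in U1_OE, beside 0.614% of all genes called higher. P4HA3 had 84.9 and 22.0 CPM in U1_OE and 14.6 and 15.0 CPM in control, and its DESeq2 log2 fold change of 1.86 was 0.60 and not called without U1_OE replicate 1 (adjusted p = 1.00). It was not called either without control replicate 1 or 2 (1.00 each) or with the replicate block (0.125). ITGA1 lost its DESeq2 call without U1_OE replicate 1 (adjusted p = 0.417), control replicate 1 (0.141) or control replicate 2 (0.746), with log2 fold changes of 0.77 to 1.43 without each library in turn. LOX lost its call without control replicate 1 (0.0729), with log2 fold changes of 1.03 to 1.22. With the replicate block DESeq2 called both, at adjusted p-values of 0.0489 for ITGA1 and 0.00168 for LOX. The log2 fold change was positive in 13 of 13 hydroxylation genes, beside 49.3% of all tested genes, with a median of 0.43. Without U1_OE replicate 1 it was positive in 10 of the 13, with a median of 0.16. In 9 of the 13 the U1_OE libraries lay above both control libraries, beside 19.7% of all tested genes. The median was 0.26 for 5 cross-linking genes, 0.23 for 8 receptors, 0.05 for 12 genes of glycosylation, folding and export and -0.02 for 8 procollagen-processing genes.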

How the data were processed

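RNA-seq of 4 libraries, 2 U1_OE and 2 control, was used. The authors deposited estimated counts per gene, not whole and with no normalization stated; per the submitters' processing notes Trim Galore, STAR, featureCounts and DESeq2 were used with the hg38 build, without versions or roles. Among rows low in a pair of libraries, ratios between libraries were set against ratios of small whole numbers times a constant. With the constant that gave the most matches, 55.9% to 59.7% lay within 0.03 (log2), against means of 29.0% to 30.0% over all constants tried. The worth of a read in each gene was not measured. Library totals of 16713505 to 19057423 limit precision mainly for chains of a few CPM.

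The values were rounded and fitted with edgeR 4.0.16 (R 4.3.3): filterByExpr, TMM, and the quasi-likelihood test over all 17317 genes with Benjamini-Hochberg adjustment at 0.05. SEs were worked back from the F statistic. DESeq2 1.42.0 and limma-voom (limma 3.58.1) were alternatives, with other scalings and filters, a replicate block and each library left out. Fits without a library leave 1 in its group, whose spread is then borrowed from the other group. The scripts were tested on simulated data. Same-numbered libraries deviated with a correlation of -0.11, and no label pairs them. Genes matched GENCODE release 29 (GRCh38) by symbol, all 43 members among them. COL9A1 was not analysed here. Chains with a mean of at least 1 CPM are given in every library. Fold changes are given for the 8 smallest p-values, for types I, III, IV, V and VI, and by DESeq2 for COL2A1. Those of others are given as ranges, and the 6 smallest p-values of the maturation list are named. The P4HA3 values were named because DESeq2 called it. Members, lists and pairs were chosen with earlier results of these data known.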

Additional observations from a re-analysis of the deposited data

How the results depend on the processing

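Depth limits mainly the 10 chains under 1 CPM on average, and 2 libraries a group limit every comparison. edgeR called 0 genes, 0 collagen genes and 0 maturation genes under every scaling, filter and left-out library, with limma-voom and with the replicate block, while DESeq2 called 189, 1 and 3. With the crossed replicate block, chosen after seeing the data, edgeR called 0, 0 and 0. No label pairs the libraries. With the block the difference in collagen share stays at 0.65 percentage points and the chain ratios stay as they are by construction, which says nothing of their stability. Without each library in turn, the median log2 fold change of collagen genes ranged from -0.12 to 0.34, and the share difference from -0.39 to 1.70 percentage points; it was 0.10 without COL1A1. Log2 fold changes ranged from -0.23 to 0.22 for COL1A2, from -0.32 to 0.16 for COL3A1, from -0.037 to 0.84 for COL4A1 and, added after seeing the data, from -0.40 to 1.03 for COL12A1, from -0.61 to 2.25 for COL14A1, from -0.39 to 0.74 for COL16A1 and from -0.12 to 1.32 for COL9A3. Log2 differences in chain ratio that changed sign ranged from -0.12 to 0.20 for COL5A1/COL1A1, from -0.21 to 0.19 for COL4A1/COL4A2, from -0.26 to 0.34 for COL6A3/COL6A1 and from -0.66 to 0.54 for COL11A1/COL11A2. The cause was not tested. The other chains whose fold change was refitted kept their sign in these fits, as did the other 7 ratios.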
